A study of Mus musculus with 6 samples.

Results

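Steroid and retinol metabolising enzymes were followed in cultured mouse hepatocytes exposed to tumour necrosis factor alpha (TNFα), an inflammatory cytokine. The set is 7 genes: Cyp17a1, Rdh7, Hsd11b1, Hsd17b2, Srd5a1, Cyp26a1 and Aldh1a1. Every probe that the array platform's annotation assigns to these symbols was taken, which gave 11 probes for 6 genes, out of 19057 genes with a probe in the table. No probe is listed for Srd5a1, the reductase that turns testosterone into dihydrotestosterone, and it was not analysed here. The RNA was from hepatocytes isolated from male C57Bl/6J animals, with 2 arrays in each of 3 groups: untreated, 2 ng/mL recombinant murine TNFα for 2 hours, and the same dose for 2 days. All groups shared collagen-coated plates and a medium that held 50 nM dexamethasone, a synthetic glucocorticoid, as well as 1 nM insulin and 5% serum. Whether the arrays of a group stand for different animals, cultures or preparations of RNA is not labelled, so every p-value here measures array-to-array spread, possibly only technical spread.

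The liver activates and clears steroid hormones and is the main store of vitamin A. Hydroxysteroid dehydrogenases switch steroids between active and inert forms by oxidising or reducing a single position, and P450 enzymes add hydroxyl groups to them. Retinol is oxidised first to retinaldehyde and then to retinoic acid, the ligand of nuclear retinoic acid receptors, and retinoic acid is removed by CYP26 hydroxylases. Several short-chain dehydrogenases act on both steroids and retinoids, which is why the families are treated together.

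Values are probe intensities on a linear scale that still hold background, and the median of every array was about 143. Differences are on the log2 scale with limma's standard error (SE), and a call means an adjusted p (Benjamini-Hochberg) under 0.05 over the 13438 tested genes, each represented by its brightest probe. Of the 11 probes, 10 passed the filter on dim probes (above the 50th percentile on at least 2 arrays). Marker lists were used to check the labelled cell type. The filter was passed by 12 of 13 hepatocyte, 10 of 10 endothelial, 9 of 12 macrophage, 7 of 12 stellate cell, 5 of 8 bile duct and 2 of 12 lymphocyte and neutrophil markers, so passing it does not by itself tell cell types apart. In untreated cells the hepatocyte markers Apoa1, Ttr, Serpina1c and Cps1 averaged 41566, 32718, 18996 and 13588, whereas the probes for Alb (160), Pck1 (155) and Fgb (133) lay near the array median. Intensities of different probes cannot be set against each other as amounts of RNA, so levels below are compared only between arrays. Each comparison is for a single probe or for a sum over a fixed set of probes, in which the brightest probes weigh most.

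Among the 6 measured enzymes, Cyp17a1 and Rdh7 fell about 7.01-fold and 6.00-fold after 2 days of TNFα, Hsd17b2 was slightly higher, Cyp26a1 was 1.51-fold lower at 2 hours, and neither Hsd11b1 nor Aldh1a1 was called at either time. At 2 hours 0 of 6 were higher and 1 was lower, where 2.82% of all tested genes were called, 1.76% higher and 1.06% lower. At 2 days 1 was higher and 2 were lower, where 12.7% of all tested genes were called, 6.74% higher and 5.92% lower. At 2 days against 2 hours 1 was higher and 2 were lower, where 15.3% of all genes were called, 8.63% higher and 6.67% lower. The arrays of the compared groups did not overlap for 2 of the 6 genes at 2 hours, 3 at 2 days and 4 between the times, against 40.4%, 49.6% and 52.8% of all tested genes. The median log2 difference of the 6 enzymes was -0.02 at 2 hours and -0.08 at 2 days, beside -0.01 and 0.01 for all tested genes.

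**Figure D1:**
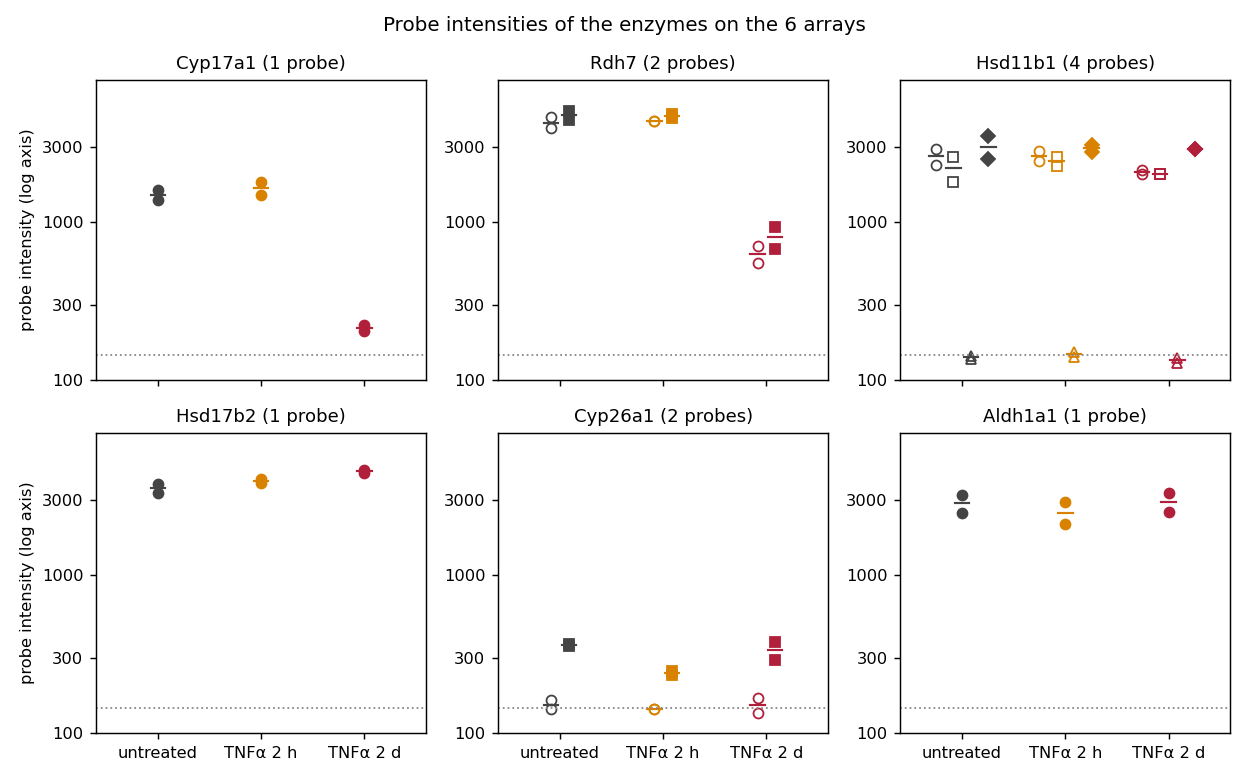
Intensity (log axis) of each probe of the 6 enzymes on the untreated, 2 hour and 2 day TNFα arrays. Points are single arrays, horizontal dashes are group means, filled symbols mark the probe used for the gene, and the dotted line is the array median. Cyp17a1 and both Rdh7 probes drop on the 2 day arrays, while the bright Hsd11b1 probes and the Hsd17b2 and Aldh1a1 probes stay far above the array median on every array, with 1809 the lowest reading among them.

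The steroid branch is described first. Cyp17a1 is the P450 that hydroxylates and cleaves progestins on the way to androgens. Its single probe read 1601 and 1387 on the untreated arrays, 1489 and 1796 after 2 hours, and 222.6 and 203.1 after 2 days. The 2 day arrays lay far below all others, while the 2 hour and untreated arrays overlapped. The mean was 213 ± 13.8 at 2 days and 1494 ± 151 in untreated cells (SD, n = 2 each), a log2 difference of -2.81 (SE 0.11, adjusted p = 1.41e-15 by limma). At 2 hours the difference was 0.13 (adjusted p = 0.744 by limma), with a 95% confidence interval from -0.10 to 0.36. Between 2 days and 2 hours it was -2.94 (adjusted p = 1.03e-15 by limma), the lowest value of the 13438 genes in that comparison. Against untreated cells Cyp17a1 ranked 7 from the lowest. The lowest Cyp17a1 reading still lay above 75.3% of the probes on its array. After normexp background correction the log2 difference at 2 days was -3.53.

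Hsd11b1 regenerates active glucocorticoid from its inert keto form in the liver. The probe used for the gene, the brightest of 4, read 3505 and 2518 on the untreated arrays, 2803 and 3062 after 2 hours, and 2912 and 2901 after 2 days. The untreated arrays spanned all the treated ones. The log2 difference was -0.02 at 2 hours (95% confidence interval from -0.27 to 0.23) and -0.03 at 2 days (95% confidence interval from -0.28 to 0.22), neither called by limma (adjusted p = 0.974 and 0.927). Another bright probe read 2922 and 2293 untreated, 2428 and 2833 at 2 hours, and 2017 and 2147 at 2 days. On that probe the 2 day arrays lay below all 4 others, with a log2 difference of -0.32 against untreated cells (adjusted p = 0.0941 over all probes by limma). Against 2 hours its difference at 2 days was -0.33 (adjusted p = 0.0631 over all probes by limma). The remaining bright probe gave -0.09 at 2 days (adjusted p = 0.790 over all probes by limma). Between 2 days and 2 hours that probe gave -0.25 (adjusted p = 0.248 over all probes by limma), with the 2 day arrays lower. The probe used for the gene gave -0.01 between the times (adjusted p = 0.973 by limma), with overlapping arrays. The dim probe read 128 to 151 on the 6 arrays, near the array median, and did not pass the filter. Of all passing probes 9.63% were called at 2 days and 11.6% between the times.

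Hsd17b2 oxidises oestradiol and testosterone to their less active keto forms. Its probe read 3794 and 3335 on the untreated arrays, 3869 and 4073 after 2 hours, and 4437 and 4680 after 2 days. The 3 groups did not overlap and stood in the order untreated, 2 hours, 2 days. The mean was 4558 ± 171 at 2 days and 3564 ± 325 in untreated cells (SD, n = 2 each), a 1.28-fold rise (log2 0.36, SE 0.10, adjusted p = 0.0199 by limma). The difference was 0.16 at 2 hours (adjusted p = 0.627 by limma) and 0.20 between 2 days and 2 hours (adjusted p = 0.230 by limma), so neighbouring steps in that order were not called. The 2 day call was lost without untreated replicate 2 (0.26), without either 2 day array (0.40 and 0.32) and after normexp (0.37).

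**Figure D2:**
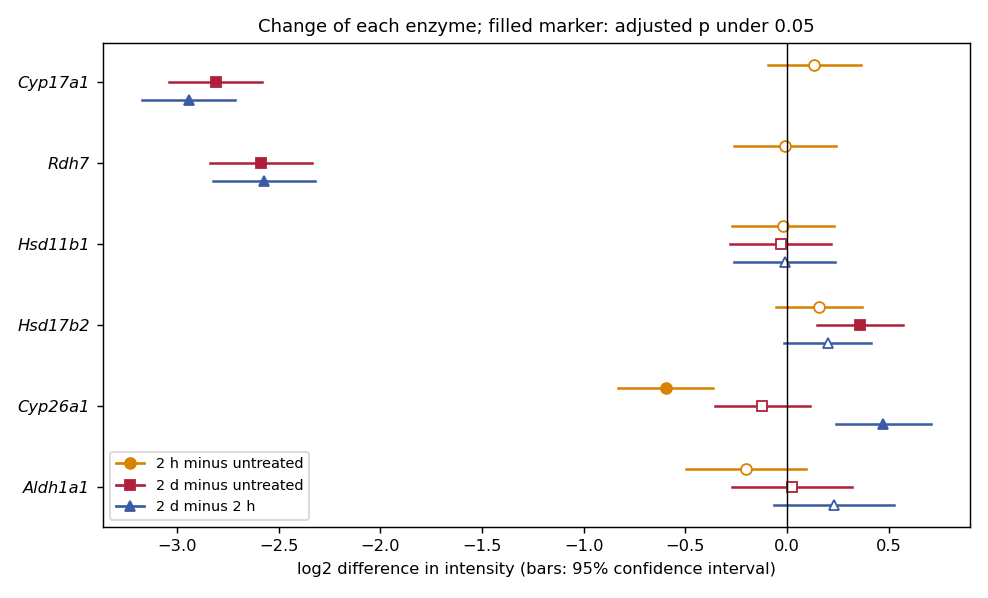
Log2 difference in intensity for each enzyme in the 3 comparisons (circles, 2 hours minus untreated; squares, 2 days minus untreated; triangles, 2 days minus 2 hours), with 95% confidence intervals from the limma fit and filled markers for adjusted p under 0.05. Cyp17a1 (-2.81) and Rdh7 (-2.59) stand apart at 2 days, and Cyp26a1 is the one filled marker at 2 hours (-0.60).

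The retinoid branch begins with Rdh7, a short-chain dehydrogenase that oxidises cis-retinols and also androgens. The probe used for the gene read 5056 and 4458 on the untreated arrays, 4596 and 4827 after 2 hours, and 674 and 928 after 2 days. The other probe read 4627 and 3931 on the untreated arrays, 4348 and 4370 after 2 hours, and 553 and 705 after 2 days. Both probes were low on both 2 day arrays and overlapped between the other groups. The mean was 801 ± 180 at 2 days and 4757 ± 423 in untreated cells (SD, n = 2 each), a log2 difference of -2.59 (SE 0.12, adjusted p = 4.27e-14 by limma). The other probe gave -2.77 (adjusted p = 4.03e-14 over all probes by limma). At 2 hours the differences were -0.01 and 0.03, neither called by limma (adjusted p = 0.985 and 0.971), and the gene's 95% confidence interval ran from -0.26 to 0.24. Rdh7 ranked 8 from the lowest both against untreated cells and against 2 hours. Leaving out any 1 array kept the 2 day difference between -2.82 and -2.35.

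RefSeq gives 2 start sites for Rdh7, both on the minus strand of chromosome 10 in build GRCm38.p6, and their promoter windows (250 bases before to 50 after the start) are shown because Rdh7 is the enzyme with the largest fall for which a window was at hand. Both are in lower case throughout, because neither held a match to any of the 5 motifs searched, which are spelled out with the Cyp26a1 window.
Rdh7 upstream start, chr10:127889198-127889497: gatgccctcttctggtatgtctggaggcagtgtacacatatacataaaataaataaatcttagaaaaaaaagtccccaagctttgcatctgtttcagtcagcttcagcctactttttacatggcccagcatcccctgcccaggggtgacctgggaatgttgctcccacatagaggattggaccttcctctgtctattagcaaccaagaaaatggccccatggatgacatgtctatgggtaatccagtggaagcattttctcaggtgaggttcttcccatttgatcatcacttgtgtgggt
Rdh7 downstream start, chr10:127888684-127888983: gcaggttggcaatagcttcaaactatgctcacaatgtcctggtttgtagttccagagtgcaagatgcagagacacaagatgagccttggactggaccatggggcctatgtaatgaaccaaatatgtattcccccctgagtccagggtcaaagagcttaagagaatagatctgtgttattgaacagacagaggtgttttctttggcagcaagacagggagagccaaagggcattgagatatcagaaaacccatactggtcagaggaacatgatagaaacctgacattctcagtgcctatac

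Rdh7 lies in a run of related short-chain dehydrogenase genes in the RefSeq gene order, with Rdh1, Rdh9, Rdh16 and Rdh19 on one side and Hsd17b6 on the other, and hybridisation of its probes to transcripts of these relatives was not tested. The probes used for Rdh1, Rdh9, Rdh16 and Rdh19 had group means between 135 and 192, and that of Hsd17b6 did not pass the filter. Rdh9 averaged 136 ± 9.90 at 2 days and 190.2 ± 10.3 in untreated cells (SD, n = 2 each; log2 -0.49, adjusted p = 0.00124 by limma), and Rdh16 averaged 136 ± 4.85 at 2 days and 158 ± 0.681 in untreated cells (log2 -0.23, adjusted p = 0.162 by limma). Rdh1 (log2 -0.14) and Rdh19 (log2 0.10), which went in opposite directions at 2 days, were not called by limma (adjusted p = 0.499 and 0.661). These neighbours were named after their values were seen. Rdh16f2 and Sdr9c7, next to Rdh7 in that order, were on no list and were not followed.

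Aldh1a1 oxidises retinaldehyde to retinoic acid in the cytosol. Its probe read 3232 and 2495 on the untreated arrays, 2099 and 2895 after 2 hours, and 2504 and 3337 after 2 days. All 3 groups overlapped, and the arrays of a group differed by 29.6% in untreated cells, 37.9% at 2 hours and 33.2% at 2 days. The log2 difference was -0.20 at 2 hours (95% confidence interval from -0.50 to 0.09, adjusted p = 0.667 by limma) and 0.03 at 2 days (from -0.27 to 0.32, adjusted p = 0.951 by limma).

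Cyp26a1 hydroxylates retinoic acid for removal and is itself a classic target of retinoic acid receptors. Its probe used for the gene read 368 and 355 on the untreated arrays, 247 and 231 after 2 hours, and 290.3 and 379 after 2 days. The 2 hour arrays were the lowest, and the 2 day arrays spanned the untreated ones. The mean was 239 ± 10.8 at 2 hours and 361 ± 9.02 in untreated cells (SD, n = 2 each), a log2 difference of -0.60 (SE 0.11, adjusted p = 0.00178 by limma), which ranked 29 from the lowest of 13438. At 2 days the difference from untreated cells was -0.12 (95% confidence interval from -0.36 to 0.11, adjusted p = 0.609 by limma). Between 2 days and 2 hours it was 0.47 (SE 0.11, adjusted p = 0.00416 by limma), and the time points thus differed by the test of the difference itself. The call at 2 hours was lost without 2 hour replicate 2 (-0.55, adjusted p = 0.0846 by limma) and after normexp (-0.87, adjusted p = 0.154 by limma). The rise between the times was lost without 2 hour replicate 2 (0.43), without 2 day replicate 2 (0.28) and after normexp (0.70). The other Cyp26a1 probe read 134 to 165 on the 6 arrays, around the array median, and gave -0.09 at 2 hours (adjusted p = 0.877 over all probes by limma), where 1.89% of probes were called. The 2 hour result therefore rests on 1 dim probe.

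The Cyp26a1 promoter window from RefSeq, on the plus strand, is shown because it holds the match searched for in this gene. Capitals mark a match to the direct repeat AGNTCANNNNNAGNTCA, the spelling used here for a retinoic acid response element, found on the strand opposite to the gene at positions -32 to -16 from the start site.
Cyp26a1, chr19:37697558-37697857: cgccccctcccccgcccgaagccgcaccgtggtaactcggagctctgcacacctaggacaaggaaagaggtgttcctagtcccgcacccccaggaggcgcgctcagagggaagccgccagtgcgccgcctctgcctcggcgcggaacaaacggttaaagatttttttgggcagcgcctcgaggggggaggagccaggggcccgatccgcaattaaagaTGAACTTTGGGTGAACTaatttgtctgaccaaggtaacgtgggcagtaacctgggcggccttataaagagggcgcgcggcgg

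Promoter windows from the same RefSeq table (GRCm38.p6) were matched for 5 of the 7 named genes: Rdh7, Hsd11b1, Srd5a1, Cyp26a1 and Aldh1a1, with 7 windows between them. Each was searched on both strands for the retinoic acid repeat above, for GGGNNTTTCC (NF-κB), TTNNGCAA (C/EBP), CAAAGTCCA (HNF4) and GNACANNNTGTNC (glucocorticoid receptor). The retinoic acid repeat was in 1 of the 7 windows, that of Cyp26a1, and in 67 of 32851 windows of the whole table (0.204%). This repeat was searched for with Cyp26a1 in mind, so the share is a description and not a test. The C/EBP spelling was in 1 Aldh1a1 window, as TTTGGCAA at -13 to -6, and in 10.8% of all windows. The NF-κB, HNF4 and glucocorticoid receptor spellings were in no window of these genes, against 1.63%, 0.475% and 0.475% of all windows. The matches did not overlap one another. A match describes letters in a short window and does not show binding.

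By the root mean square difference of centred log2 values over the 6 arrays, the tested genes nearest to Cyp17a1 were Arg1 (0.07), Cps1 (0.16) and Cyp2a12 (0.20). Those nearest to Rdh7 were Cyp2a12 (0.17), Arg1 (0.18) and Gnmt (0.19). The nearest to Cyp26a1 was Rarb, retinoic acid receptor beta (0.08), followed by Mkrn2 (0.09) and Cd2bp2 (0.11). Rarb read 273 and 239.8 at 2 hours and 364 and 346 in untreated cells on the probe used. The nearest to Hsd17b2 were Ift27 (0.02), Magi1 (0.02) and Snrpg (0.03). A gene that changes little has many near neighbours on this measure, so the small values for Hsd17b2 single out nothing.

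The surrounding pathways were described on 4 lists that left the 6 enzymes out. Over the 65 genes tested in them, 2 were higher and 1 was lower at 2 hours, and 3 were higher and 13 lower at 2 days, beside the shares of all genes given above. At 2 days against 2 hours 3 were higher and 14 lower.

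Among other retinoid-converting enzymes, 8 of 26 tested genes fell and 1 rose at 2 days, with a median log2 difference of -0.15 beside 0.01 for all genes. Of all tested genes 5.92% were lower and 6.74% higher at 2 days. Adh1, the main hepatic alcohol dehydrogenase, which also oxidises retinol, averaged 6195 ± 518 at 2 days and 18295 ± 3168 in untreated cells (SD, n = 2 each; log2 -1.55, SE 0.11, adjusted p = 1.47e-10 by limma), and its other probe gave -1.69. Aldh8a1, an aldehyde dehydrogenase that accepts cis-retinaldehyde, averaged 200.2 ± 14.6 at 2 days and 597 ± 127 in untreated cells (log2 -1.56, adjusted p = 4.36e-10 by limma), with -0.44 on its other passing probe, -1.0 over the mean of its probes and -2.20 after normexp. Adh4, another retinol-oxidising alcohol dehydrogenase, fell by 0.55 on the log2 scale (adjusted p = 0.000234 by limma). Ces1d, a carboxylesterase that can hydrolyse retinyl esters, rose by 0.54 (adjusted p = 0.000381 by limma). The other 5 that fell were Rdh9, Bco1, the carotene-cleaving oxygenase, Rdh11, Adh7 and Ces1e, named after their values were seen, with differences from -0.49 to -0.32. At 2 hours Adh7, a retinol-active alcohol dehydrogenase, was the 1 gene called, higher by 0.50 on a probe that read 474 and 486 at 2 hours and 361 and 317 in untreated cells. Its other probe gave 0.11 at 2 hours and 0.04 at 2 days, neither called, and the 2 hour call was lost without 2 hour replicate 2 (0.48), without untreated replicate 2 (0.41) and after normexp (0.65). After normexp 5 of the list were lower and 1 higher at 2 days.

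**Figure D3:**
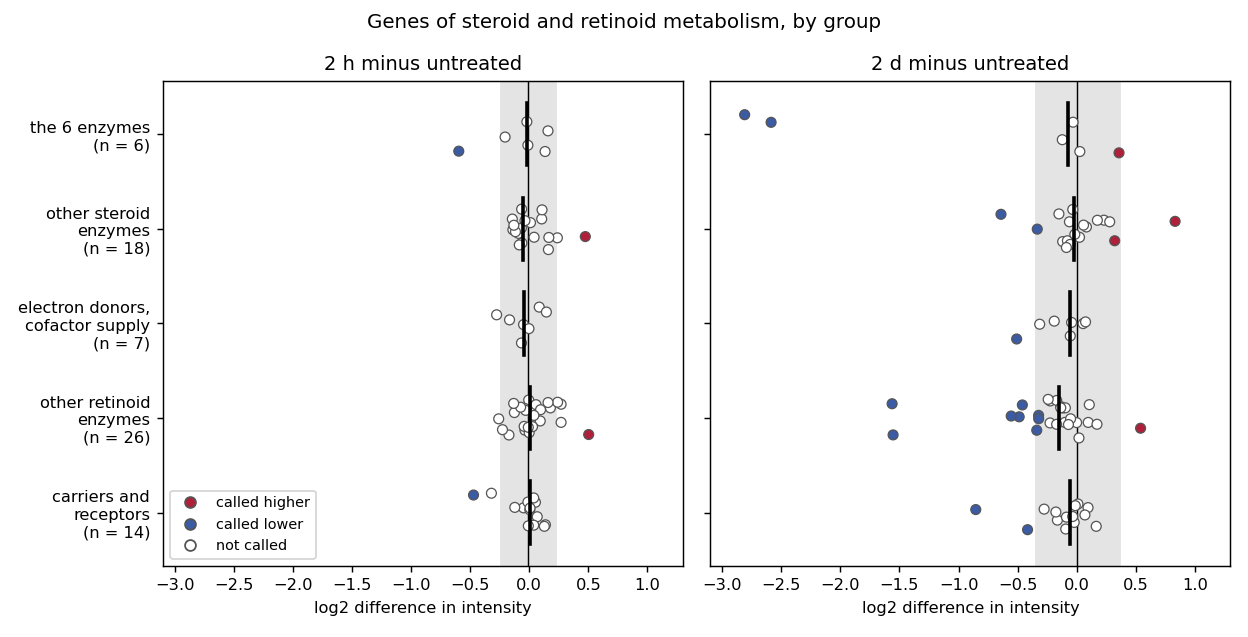
Log2 difference in intensity at 2 hours (left) and 2 days (right) against untreated cells for each tested gene of 5 groups. Points are genes, thick bars are group medians, and the thin line marks the median of all 13438 genes (-0.01 left, 0.01 right). The grey band runs from -0.24 to 0.22 (left) and from -0.35 to 0.36 (right), the 5th and 95th percentiles of all 13438 genes. Colour marks calls. Apart from Cyp17a1 and Rdh7, the lowest genes at 2 days are Aldh8a1 (-1.56) and Adh1 (-1.55).

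Retinoid carriers and nuclear receptors had 2 of 14 lower and 0 higher at 2 days (3 had an unadjusted p under 0.05), with a median of -0.06. At 2 days 5.92% of all tested genes were lower and 6.74% higher. Of all 13438 tested genes 3061 had an unadjusted p under 0.05 at 2 days. Rbp4, the carrier that hepatocytes secrete with retinol, averaged 1684 ± 223 at 2 days and 3166 ± 1290 in untreated cells (SD, n = 2 each; log2 -0.85, adjusted p = 0.000642 by limma). Its untreated arrays read 4078 and 2255, and without the higher one, untreated replicate 1, the difference was -0.43 and was not called, while it was -1.28 without untreated replicate 2. Rxra, the dimer partner of retinoic acid receptors, fell by 0.42 (adjusted p = 0.00819 by limma), a call lost without untreated replicate 1 (-0.37) and after normexp (-0.63). Rarb, itself a retinoic acid target, was the 1 gene called at 2 hours (-0.47, adjusted p = 0.00984 by limma). Its other probes gave -0.26 and -0.20 and were not called, and the call was lost without 2 hour replicate 2 (-0.38), without untreated replicate 1 (-0.44) and after normexp (-0.68). Nr3c1, the glucocorticoid receptor, averaged 157 at 2 days and 161 in untreated cells (log2 -0.03, adjusted p = 0.899 by limma). That probe lay near the array median, so a change in its RNA could be missed.

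Among other steroid-converting enzymes 2 of 18 fell and 2 rose at 2 days, where 5.92% of all tested genes were lower and 6.74% higher. The median log2 difference of the 18 was -0.03. Akr1c12, an aldo-keto reductase, averaged 3889 ± 86.5 at 2 days and 2185 ± 16.9 in untreated cells (SD, n = 2 each), a 1.78-fold rise (log2 0.83, adjusted p = 1.02e-06 by limma). Hsd17b7, which also acts in cholesterol synthesis, averaged 1064 ± 6.15 at 2 days and 1661 ± 77.3 in untreated cells (SD, n = 2 each; log2 -0.64, adjusted p = 4.10e-05 by limma). The smaller calls were Hsd17b4 (-0.33), a peroxisomal enzyme of fatty acid breakdown, and Hsd17b12 (0.32), which acts in fatty acid elongation. Hsd17b12 gave -0.05 on its other probe, and both of these calls were lost after normexp and without either 2 day array. At 2 hours the oxysterol hydroxylase Cyp7b1 was the 1 gene called, higher by 0.47 (adjusted p = 0.0345 by limma). That call was lost without 2 hour replicate 2 (0.26), without untreated replicate 2 (0.35) and after normexp (0.52).

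Among all tested genes 6.74% were higher and 5.92% lower at 2 days. Of the electron donors and cofactor suppliers of these enzymes 0 of 7 rose and 1 fell then, with a median of -0.05. The gene that fell was Slc37a4, the carrier that brings glucose phosphate into the endoplasmic reticulum, at 158 ± 3.16 after 2 days and 225 ± 0.440 in untreated cells (SD, n = 2 each; log2 -0.51, adjusted p = 0.000575 by limma), and -1.0 after normexp. H6pd, the dehydrogenase that supplies NADPH to Hsd11b1 there, gave 0.05 (95% confidence interval from -0.15 to 0.26), and Cyb5a, which assists the lyase step of Cyp17a1, gave -0.04 (from -0.27 to 0.18). At 2 hours limma called 0 of the 7, while 1 had an unadjusted p under 0.05, as had 1583 of the 13438 tested genes.

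**Figure D4:**
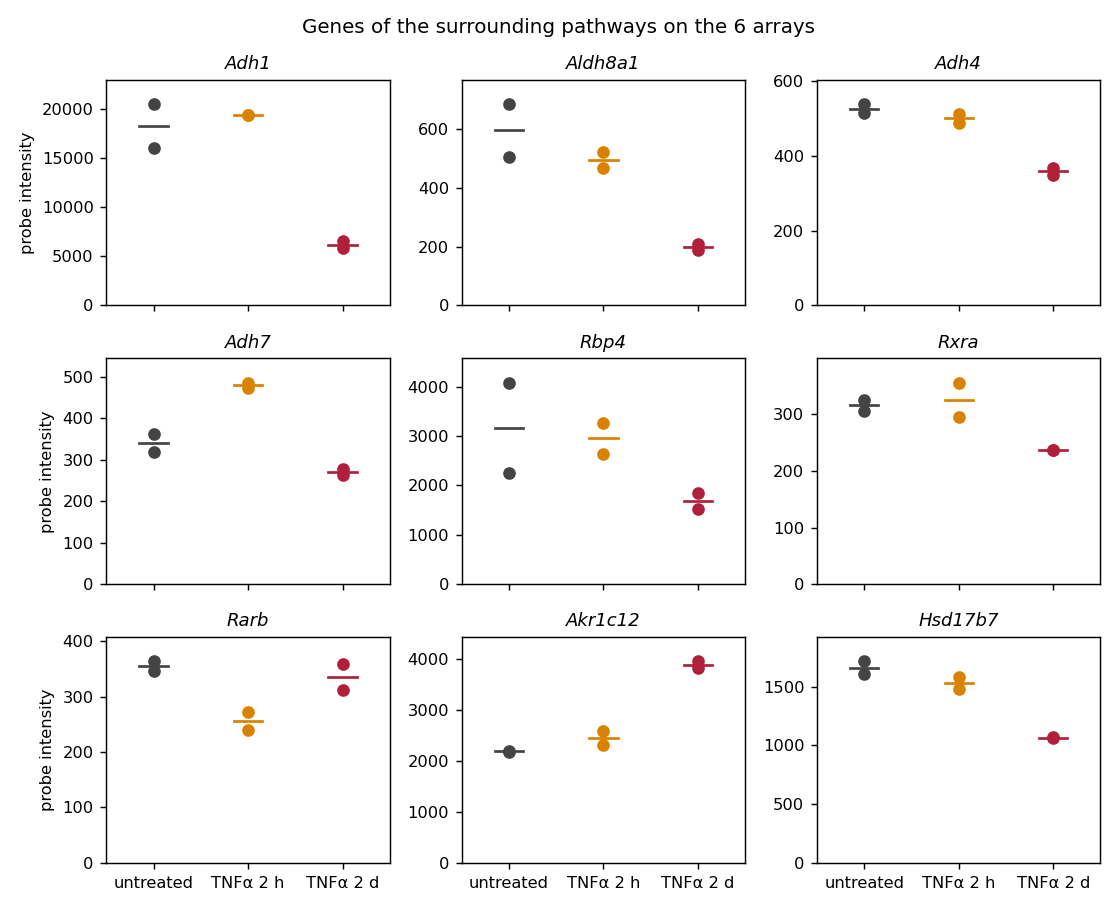
Intensity (linear axis from 0) of 9 genes of the surrounding pathways on the untreated, 2 hour and 2 day TNFα arrays. Points are single arrays and dashes are group means. Adh1, Aldh8a1, Adh4 and Hsd17b7 are lowest on the 2 day arrays, Akr1c12 is highest there, and the untreated Rbp4 arrays lie far apart (4078 and 2255).

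Markers of the hepatocyte state moved with the 2 day falls. Of 12 hepatocyte markers tested 6 were lower and 0 higher at 2 days, where 5.92% of all tested genes were lower and 6.74% higher. The summed intensity of the 12 markers was 77030 and 72416 at 2 days, against 127208 and 119459 in untreated cells. The 5 bile duct markers tested of 8 summed to 9861 and 11295 at 2 days, against 5312 and 4780 in untreated cells. Of these 5, Sox9 (log2 1.78) and Cldn4 (0.95) were higher, while Krt7 (0.09), Krt19 (0.19) and Sctr (-0.01) were not called. The 7 stellate cell markers tested of 12 summed to 3491 and 4148 at 2 days, against 2746 and 3179 in untreated cells. Of these 7, Acta2 was higher at 2 days (a mean of 2507, against 1578 in untreated cells) and Reln was lower (log2 -0.82, adjusted p = 1.20e-06 by limma). The 9 macrophage markers tested of 12 summed to 1720 and 1879 at 2 days, against 1512 and 1579 in untreated cells. Of these 9, C1qa, C1qb and C1qc were higher. The other 6 were not called, with log2 differences from -0.14 (Timd4) to 0.30 (Marco). The 10 endothelial markers summed to 2076 and 2038 at 2 days, against 2125 and 1973 in untreated cells, with Oit3 higher and Stab2 lower. Lrat, which defines retinol-storing stellate cells, did not pass the filter. The part of these shifts in the falls of Cyp17a1, Rdh7 and Adh1 was not tested, and in bulk RNA fewer hepatocytes and less RNA per hepatocyte cannot be told apart. The labels give no culture time for untreated cells, so at 2 days the cytokine and the time in culture cannot be told apart either. At 2 hours limma called 0 of the 12 hepatocyte markers. Of these 12, 3 had an unadjusted p under 0.05, as had 1583 of the 13438 tested genes. At that time Sox9 (log2 0.79) was higher, as was Reln (0.43), which was lower at 2 days.

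Replicates of a group differed in a shared direction on these probes. Untreated replicate 1 read higher than replicate 2 on 10 of the 11 probes, while it was higher for 50.2% of all tested genes. Replicate 1 was the higher on 2 of the 11 probes both at 2 hours and at 2 days. The widest gap between the arrays of a group was 43.5%, on an Hsd11b1 probe in untreated cells, far below the 2 day change of Cyp17a1 or Rdh7. The arrays of the Cyp26a1 probe used were 6.60% apart at 2 hours and 3.60% apart in untreated cells, and 30.6% apart at 2 days. Those of Hsd17b2 were 5.46% apart at 2 days and 13.8% apart in untreated cells.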

How the data were processed

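Biotin-labelled cRNA from hepatocyte RNA was hybridised to 6 single-colour Illumina mouse arrays, per the labels' protocols. The authors deposited 1 linear intensity per probe and array for 45281 probes. The deposited intensity columns shared nearly 1 distribution, as after quantile normalization. At any rank they differed by at most 0.333%, and the values of all arrays together ran from 96.5 to 47615. No label names the normalization step, and scanning and normalization software are not given in the sources used here. Groups and replicate numbers came from the sample titles. Probes were named by the platform's probe table (34885 with 1 symbol, 18 with several, 10378 not listed), with symbols updated through a RefSeq table of GRCm38.p6.

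Intensities were converted to log2. Probes above the 50th percentile on at least 2 arrays were kept (26272), and the brightest probe stood for each gene (13438 genes). The limma package (3.58.1, R 4.3.3) fitted the 3 group means to the 6 arrays together, with moderated variances (3 residual and 21.2 prior degrees of freedom), with Benjamini-Hochberg adjustment, and a second fit took every passing probe. The text names every probe of the set, up to 4 called genes with the largest change per list and comparison against untreated cells, and the 3 nearest genes by likeness to each called member; genes outside this rule are marked as chosen after their values were seen or are background to a member (H6pd, Cyb5a, Nr3c1 and the neighbours of Rdh7, also chosen afterwards). The members and lists were chosen with earlier results of these data known. The fit was tested on simulated data. Alternatives were median centring, cyclic loess, normexp with an offset of 16, a filter at the 70th percentile or none, averaging the probes of a gene, other probes, a trended variance, the compared groups alone, a replicate block and leaving out each array. The small number of arrays limits the precision.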

Additional observations from a re-analysis of the deposited data

Results flagged for a closer look

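For the genes named below the difference between 2 days and 2 hours of TNFα was itself called by limma in the main fit. On the probe used for each gene the responses at the 2 times thus differed, and both responses share the untreated arrays. The falls of Cyp17a1 (log2 -2.94) and Rdh7 (-2.57) were called at 2 days and not at 2 hours. Cyp26a1 went the other way (0.47), low at 2 hours and near the untreated level at 2 days, and Rarb did likewise (0.38) on the probe used. The other Rarb probes gave 0.22 and 0.08 between the times and were not called. Adh7 (-0.83) was higher than untreated at 2 hours and lower at 2 days on 1 probe, while its other passing probe gave -0.07 between the times and was not called. Adh1 (-1.65), Aldh8a1 (-1.30), Rbp4 (-0.81), Hsd17b7 (-0.52), Adh4 (-0.48), Rxra (-0.45) and Slc37a4 (-0.44) were lower at 2 days than at 2 hours. Akr1c12 (0.67) and Ces1d (0.38) were higher. The adjusted p of these differences by limma ranged from 1.03e-15 for Cyp17a1 to 0.0128 for Rarb. Of the retinoid carriers and receptors 4 were called between the times. They were Rarb, Rbp4, Rxra and Ttr (-0.33, adjusted p = 0.0216 by limma), the last named after its values were seen. That count was as low as 0 among the alternatives run, so the calls of all 4 were lost there.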

How the results depend on the processing

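The 2 day falls of Cyp17a1 and Rdh7, against untreated cells and against 2 hours, kept their direction and call under every alternative run. The Cyp26a1 fall at 2 hours (-0.60) was lost after normexp (-0.87), with the mean of its probes (-0.34) and on its other probe (-0.093). It was also lost without 2 hour replicate 2 (-0.55). Over all left-out arrays, lost or kept, it ran from -0.64 to -0.55. The 2 day minus 2 hour rise of Cyp26a1 was lost after normexp (0.70), with the mean of its probes (0.27) and on its other probe (0.071). That rise was also lost without some arrays, and over all left-out arrays, lost or kept, it ran from 0.28 to 0.67. The uncalled 2 day difference of Cyp26a1 ranged from -0.32 to 0.070 as arrays were left out. Hsd17b2 at 2 days was lost after normexp (0.37) and without some arrays. Over all left-out arrays, lost or kept, it ran from 0.26 to 0.45. Some differences called under no setting changed sign, as follows. Rdh7 at 2 hours gave 0.0088 with cyclic loess, 0.010 with the mean of its probes, 0.032 on its other probe and -0.10 to 0.079 with arrays left out. Hsd11b1 at 2 hours gave 0.053 with the mean of its probes, 0.019 and 0.16 on its other probes and -0.26 to 0.22 with arrays left out. With arrays left out the probe used for Hsd11b1 gave -0.27 to 0.21 at 2 days and -0.075 to 0.052 between the times. Its other bright probes gave -0.33 and -0.25 between the times, neither called. With arrays left out Cyp17a1 gave -0.0012 to 0.27 at 2 hours. Aldh1a1 then gave -0.44 to 0.028 at 2 hours, -0.18 to 0.23 at 2 days and -0.0019 to 0.46 between the times. With cyclic loess Aldh1a1 at 2 days was -0.0063. The number of genes called was 379 at 2 hours, 1701 at 2 days and 2056 between the times. It was 95, 655 and 810 after normexp, 250 at 2 hours with the mean of probes, and with arrays left out 187 to 384, 1150 to 1536 and 1270 to 2155. It was 209 and 187 at 2 hours without 2 hour replicates 1 and 2, and 1270 between the times without 2 hour replicate 2. Of the 65 pathway genes 3, 16 and 17 were called. These counts were 0, 9 and 9 after normexp, 0 at 2 hours with the mean of probes, and 0 to 3, 10 to 16 and 11 to 17 with arrays left out. The lowest of these came without untreated replicate 1 at 2 days (10, 7 lower and 3 higher) and without 2 hour replicate 2 at 2 hours and between the times. An array left out of a group leaves 1 sample there, assumed to vary like the others. With the replicate number as a block 363, 1638 and 2007 genes were called, no call of the 6 enzymes changed, and deviations of same-numbered arrays correlated at -0.15 to 0.04, so the numbers were not taken as pairs. The cause of a lost call was not tested. Signal over background limits the folds of dim probes, among them Cyp26a1, Rarb, Rdh9, Ces1e, Slc37a4 and Nr3c1. It also limits those of genes that end dim at 2 days, such as Cyp17a1 and Aldh8a1.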
